A study of Homo sapiens with 6 samples.

Results

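The genes described here are 6 genes of the opioid system, the receptor genes OPRK1, OPRL1, OPRM1 and OPRD1 and the precursor genes PENK and PDYN. They were found by gene name among the 47032 symbols of 6 deposited tables, and each name had 1 entry. RNA of 6 prostate cancer lines of human origin was sequenced, 1 library for each, so no line has a replicate. The castration-sensitive lines were LnCaP, VCaP and LAPC4. Their castration-resistant counterparts by name were LnCaP-abl, VCaP-CR and LAPC4-CR, which gives 3 pairs, and where 2 values are given for a pair the sensitive line comes first. RPMI with 10% FBS was the medium of LnCaP and LAPC4, and DMEM with 10% FBS that of VCaP. The 3 resistant lines were all cultured in RPMI with 10% charcoal-stripped FBS, a serum depleted of steroids, and B27, a serum-free supplement. No line received any other treatment. State and medium changed together in every pair and cannot be told apart here. Each line is a single culture line, and nothing in the labels speaks of separate cultures or clones.

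Opioid receptors are membrane receptors that couple to inhibitory G proteins, and on binding a peptide they lower cyclic AMP and act on ion channels. OPRK1 encodes the kappa receptor, whose preferred peptides are the dynorphins cut from the PDYN product. OPRM1 and OPRD1 encode the mu and delta receptors, which bind enkephalins from PENK and endorphin from POMC, and OPRL1 encodes the receptor of nociceptin, which comes from PNOC. These genes are best known from the nervous system. In prostate cancer cells OPRK1 is known as a gene repressed by androgen.

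OPRK1 was one of the most abundant protein-coding RNAs in LnCaP-abl and was low in the other 5 libraries. Levels are given as scaled FPKM, the deposited FPKM (counts per gene length and library total) divided by a factor per library. OPRK1 (ENSG00000082556, protein-coding, chromosome 8, 54300837 to 54326810 in hg18) was at 0.633 and 159.2 scaled FPKM for the LnCaP pair, 2.07 and 1.93 for the VCaP pair, and 0.382 and 0.260 for the LAPC4 pair. LnCaP-abl stood alone, 77.1-fold above the next library, and the VCaP lineage came next, above LnCaP and the LAPC4 lineage. The counts behind these levels were 34, 10496, 118, 179, 29 and 36. By level, OPRK1 ranked 123 of 19944 protein-coding genes in LnCaP-abl and 12225 in LnCaP. It took 0.0964% of all counts in LnCaP-abl (Wilson 95% interval 0.0945 to 0.0982).

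In the order of the levels, VCaP and VCaP-CR had overlapping exact 95% Poisson intervals, at 1.71 to 2.47 and 1.66 to 2.24 scaled FPKM. The interval of LnCaP, 0.438 to 0.885, lay below both. It overlapped that of LAPC4 (0.256 to 0.548), which overlapped that of LAPC4-CR (0.182 to 0.359). These intervals cover counting error only, and a difference outside them is a difference between libraries.

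**Figure D1:**
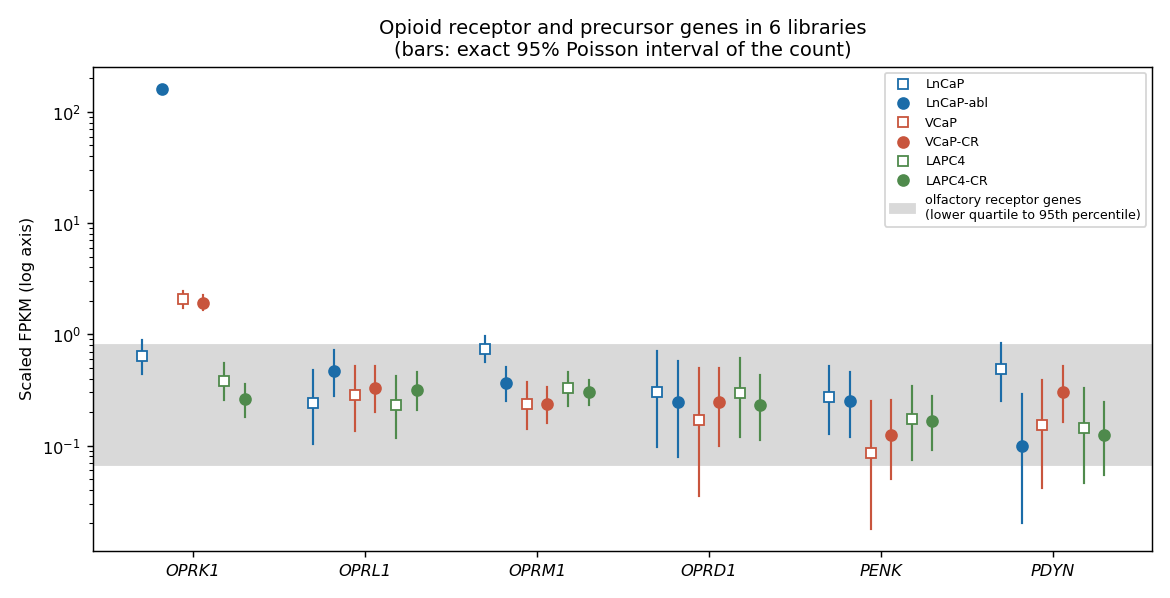
Scaled FPKM (log axis) of the 6 genes in each library; squares are sensitive and circles resistant lines, bars are exact 95% Poisson intervals of the count, and the grey band runs from the lowest lower quartile to the highest 95th percentile of the olfactory receptor genes over the libraries. OPRK1 in LnCaP-abl sits at 159.2, OPRK1 in VCaP and VCaP-CR lies above the band, and the values of the other 5 genes lie inside it.

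The high level in LnCaP-abl is what OPRK1 was chosen for, so the size of that difference is a description and carries no test. The level in LnCaP-abl was 251.5 times that in LnCaP (95% counting interval 179.9 to 363.4). An interval wholly above 1 was found for 15% of the 40913 genes with a count in that pair, 10.8% of 41173 in the VCaP pair and 15.3% of 42116 in the LAPC4 pair, and one wholly below 1 for 15.6%, 11.6% and 16.1%. On the scale log2(scaled FPKM + 1), which understates changes at low levels, the change was 6.62, the second highest of 17324 genes that had a mean of at least 1 scaled FPKM. Of those genes, 6.66% were at least 2-fold higher in LnCaP-abl. Most of the mean of OPRK1 in that filter on low values came from LnCaP-abl, and the other libraries alone were only just past it.

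The other pairs did not enter that choice. In the VCaP pair the resistant library was at 0.936 times the parent (counting interval 0.738 to 1.19, log2 change -0.06). In the LAPC4 pair it was at 0.680 times the parent (0.405 to 1.15, log2 change -0.13). Both intervals include 1. EdgeR's quasi-likelihood test on these 2 pairs, fitted across all genes with the parental line as a block, gave OPRK1 a log2 change of -0.30 (SE 0.41, adjusted p = 0.844); it called 0% of 17319 genes higher and 0.00577% lower. At this depth no change of OPRK1 was detectable in either of them. Over all 3 pairs edgeR gave 1.48 (SE 1.83, adjusted p = 0.813), a value that includes the pair the gene was chosen on. Without that pair its sign turned, as the -0.30 above shows. The same fit called 0% of 17324 genes higher and 0% lower, with 861 higher and 692 lower at an unadjusted p under 0.05. DESeq2 called 94 and 64, and limma 0 and 0.

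A level below 1 FPKM is also found for most genes of a class best known from another tissue. As a background, the 375 protein-coding olfactory receptor genes, which encode odour receptors of the nose, had medians of 0.229 and 0.159 scaled FPKM for the LnCaP pair, 0.186 and 0.133 for the VCaP pair, and 0.227 and 0.166 for the LAPC4 pair. This class was chosen after the levels had been seen. Its highest member was OR10G8, at 115.9 to 204.7 scaled FPKM in every library. No member was left out for known expression in prostate, so the class is only a rough background. OPRK1 in VCaP and VCaP-CR was reached by 3 and 4 of the 375 genes. OPRK1 in LnCaP was reached by 7.47% of them, in LAPC4 by 20.5% and in LAPC4-CR by 26.1%, so at LAPC4's levels it stood near the background. The background itself was lower in each resistant library, at 0.694, 0.716 and 0.732 times the median of its parent in the LnCaP, VCaP and LAPC4 pairs. The ratio of OPRK1 in the LAPC4 pair, 0.680, lies close to the last of these; the part of the background in it was not tested.

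The 5 other genes stayed at background level in all 6 libraries, including LnCaP-abl. Their 30 values ran from 0.0862 to 0.740 scaled FPKM, on 3 to 59 counts, and 0 of the 30 exceeded the 95th percentile of the olfactory receptor genes in the same library. None of the 5 reached a mean of 1 scaled FPKM, so they did not enter the main fit. The edgeR values given for them come from a fit with no filter on low values. That fit called 0.22% of 43121 genes higher and 0.135% lower, and 0 of the 5. Its counts of 95 and 58 genes depend on single pairs: leaving out the LnCaP pair gave 462 and 278, leaving out the VCaP pair 140 and 150, and leaving out the LAPC4 pair 258 and 147, while limma called 0 and 0.

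Among the receptors, OPRL1 (ENSG00000125510, chromosome 20, 62181970 to 62202440 in hg18) was at 0.241 and 0.465 scaled FPKM for the LnCaP pair, 0.283 and 0.331 for the VCaP pair, and 0.234 and 0.314 for the LAPC4 pair. The resistant library was the higher one in 3 of 3 pairs, by 1.94-fold (counting interval 0.809 to 5.11), 1.17-fold (0.519 to 2.82) and 1.34-fold (0.645 to 3.0), each within counting error. The edgeR log2 change was 0.66 (SE 0.41, adjusted p = 0.794).

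OPRM1 (ENSG00000112038, chromosome 6, 154373324 to 154609693) was at 0.740 and 0.366 for the LnCaP pair, 0.236 and 0.238 for the VCaP pair, and 0.327 and 0.302 for the LAPC4 pair. LnCaP was the highest of the 6, on 56 counts. The LnCaP-abl level was 0.495 times that of LnCaP (0.313 to 0.771), an interval below 1, as for 15.6% of genes in that pair. The other pairs gave 1.01 (0.551 to 1.89) and 0.923 (0.598 to 1.45). The edgeR log2 change over the 3 pairs was -0.25 (SE 0.39, adjusted p = 0.975), and without the LnCaP pair it was 0.04 (adjusted p = 0.996). OPRD1 (ENSG00000116329, chromosome 1, 29011241 to 29062795) rested on 3 to 10 counts per library, between 0.170 scaled FPKM in VCaP and 0.301 in LnCaP. Its edgeR log2 change was 0.04 (SE 0.57, adjusted p = 0.996), and all 3 of its counting intervals include 1.

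The receptor RNA of LnCaP-abl was thus almost entirely OPRK1. Its share of the summed scaled FPKM of the 4 receptor genes was 99.3% there and 33.1% in LnCaP. It was 75% and 70.4% for the VCaP pair, and 30.8% and 23.4% for the LAPC4 pair. In LnCaP and the LAPC4 lineage no member of the family led by a wide margin, and all were near background.

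The precursor genes were as low in LnCaP-abl as elsewhere. PDYN (ENSG00000101327, chromosome 20, 1907403 to 1922732), the source of the dynorphins, was at 0.483 and 0.0985 scaled FPKM for the LnCaP pair, 0.152 and 0.304 for the VCaP pair, and 0.142 and 0.125 for the LAPC4 pair. The PDYN interval of LnCaP-abl, 0.0203 to 0.288 on 3 counts, overlapped those of the other 5 libraries. The PDYN ratio in the LnCaP pair was 0.204 (0.0369 to 0.755), in the VCaP pair 2.0 (0.619 to 8.44) and in the LAPC4 pair 0.876 (0.253 to 3.40). The first of these intervals is below 1, as for 15.6% of genes in that pair, and it rests on 12 and 3 counts. The edgeR log2 change over the pairs was -0.29 (SE 0.57, adjusted p = 0.977). Without the LnCaP pair it was 0.52 (adjusted p = 0.993). PENK (ENSG00000181195, chromosome 8, 57498503 to 57521847), the enkephalin precursor, was at 0.275, 0.249, 0.0862, 0.124, 0.173 and 0.166 in the same order of libraries, on 3 to 14 counts. Its 3 ratios were 0.905, 1.44 and 0.958, each within counting error, and the edgeR log2 change was 0.18 (SE 0.48, adjusted p = 0.991).

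Several of these genes overlap another gene in the tables, and whether the counting used strand is not given in the sources used here. By Ensembl identifier, GENCODE release 29 places OPRK1 on the minus strand and RP11-162D9.3, which overlaps it, on the plus strand. RP11-162D9.3 was at 0.413 scaled FPKM in LnCaP-abl and 0.253 in LnCaP, far below OPRK1 in LnCaP-abl. OPRM1 overlaps in part IPCEF1 on the opposite strand, which was at 0.692 in LnCaP and 1.07 in LnCaP-abl. Whether reads of IPCEF1 entered the counts of OPRM1 there was not tested. OPRL1, PENK and PDYN also overlap genes of the opposite strand (C20orf201, RP11-17A4.2 and RP4-684O24.5).

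The surroundings of OPRK1 were described next. Of 26 genes within 1 Mb of it, 10 passed the filter on low values. In the LnCaP pair 2 of the 10 were higher by 2-fold or more and 1 lower by as much, against 6.66% and 7.72% of all tested genes. In the VCaP and LAPC4 pairs 0 of the 10 changed 2-fold, against 2.54% higher and 2.29% lower and against 5.75% and 6.77%. The largest change was that of RP11-1081M5.1 (ENSG00000253369, chromosome 8, 54470324 to 54471059 in hg18), a long noncoding RNA gene 144 kb from OPRK1. GENCODE places it on the minus strand, like OPRK1, so it lies upstream of the receptor gene. RP11-1081M5.1 passed the filter through LnCaP-abl, so its place among the 2 higher neighbours carries no test.

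RP11-1081M5.1 was at 3.05 and 39.8 scaled FPKM for the LnCaP pair, 0.169 and 0.313 for the VCaP pair, and 0.254 and 0.209 for the LAPC4 pair. It was 13.0-fold higher in LnCaP-abl than in LnCaP (counting interval 7.99 to 22.7), on 272 and 17 counts, and had 1 to 3 counts in each library of the other lineages. Its log2 change of 3.33 ranked 58 of 17324, with LnCaP-abl also the library that brought it past the filter. OPRK1 and RP11-1081M5.1 were both highest in LnCaP-abl, but OPRK1 was lower in LnCaP than in VCaP, whereas RP11-1081M5.1 was higher. Among the protein-coding neighbours, ATP6V1H, a subunit of the vacuolar proton pump, was at 5.09 in LnCaP and 12.8 in LnCaP-abl (log2 change 1.18), and TCEA1, a transcription elongation factor, at 14.4 and 28.5 (0.94). RB1CC1, an autophagy gene, was at 5.87 and 4.33 (-0.37), and LYPLA1 and MRPL15 changed by -0.34 and 0.12. AC113194.1, a noncoding RNA gene, was at 5.91 in LnCaP and 1.59 in LnCaP-abl (-1.41). The pseudogenes RP11-162D9.1, RP11-400K9.1 and RP11-400K9.2 changed by -0.69, 0.24 and -0.48. Genes next to OPRK1 thus moved in both directions. Of the genes below the filter, NPBWR1, the nearest protein-coding gene and also a peptide receptor gene, stayed at 0.476 and 0.453 scaled FPKM. RP11-400K9.4, a noncoding RNA gene 263 kb from OPRK1 and also below the filter, was at 0.268 in LnCaP and 1.64 in LnCaP-abl (1.06).

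**Figure D2:**
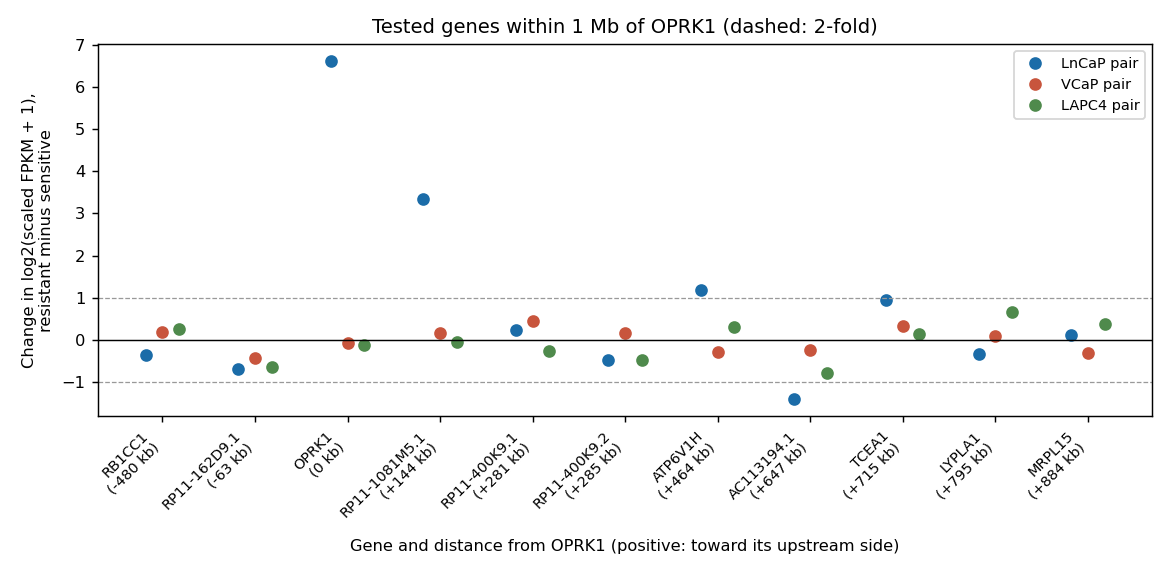
Change in log2(scaled FPKM + 1), resistant minus sensitive, for OPRK1 and the 10 tested genes within 1 Mb, ordered by distance in kb, with 1 point per pair and dashed lines at 2-fold. In the LnCaP pair OPRK1 stands at 6.62 and RP11-1081M5.1 at 3.33; the neighbours in the other pairs stay within 2-fold.

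OPRK1 was set beside other genes known as repressed by androgen. Of 6 such genes, 2 had at least 2-fold more RNA and 0 at least 2-fold less in LnCaP-abl (median log2 change 0.25, against -0.01 over all tested genes). Of all tested genes, 6.66% were at least 2-fold higher there and 7.72% lower. The 2 were UGT2B17 and UGT2B15, enzymes that inactivate androgens by glucuronidation, whose near-identical sequences make the split of counts between them uncertain. UGT2B17 was at 10.5 and 469.6 scaled FPKM for the LnCaP pair, 8.31 and 2.29 for the VCaP pair, and 2.5 and 1.17 for the LAPC4 pair. UGT2B15 was at 4.21, 78.1, 13.0, 5.84, 7.59 and 2.39 in the same order. Like OPRK1, both were highest in LnCaP-abl. In the VCaP and LAPC4 pairs UGT2B17 had log2 changes of -1.50 and -0.69, and UGT2B15 -1.04 and -1.34. OPRK1 had -0.06 and -0.13 there, with counting intervals that include 1.

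AKR1C3, HSD17B6 and MET, also on the list, did not follow that pattern. AKR1C3, an androgen-synthesis enzyme, was at 0.529 and 0.690 in the LnCaP pair, 18.7 and 10.9 in the VCaP pair, and 0.175 and 0.191 in the LAPC4 pair. HSD17B6, a steroid dehydrogenase gene, had log2 changes of -0.27, -1.45 and -0.01, and the growth factor receptor gene MET had -0.27, 0.68 and -0.08. In the VCaP pair 0 of the 6 were at least 2-fold higher and 3 lower (median -0.88, against -0.01), beside 2.54% and 2.29% of all tested genes. In the LAPC4 pair the median was -0.04, against 0.00.

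Genes known as induced by androgen were lower in the resistant line in more pairs than OPRK1 was higher. Of 10 such genes, 8 were at least 2-fold lower and 1 higher in LnCaP-abl (median -2.60), 3 lower and 1 higher in VCaP-CR (median -0.32), and 8 lower and 0 higher in LAPC4-CR (median -2.36). Over all tested genes 7.72%, 2.29% and 6.77% were at least 2-fold lower in these pairs, and 6.66%, 2.54% and 5.75% higher. KLK3, which encodes prostate-specific antigen, was at 602.8 scaled FPKM in LnCaP and 0.667 in LnCaP-abl, 321.4 and 19.0 in the VCaP pair, and 105.5 and 2.07 in the LAPC4 pair. KLK3 was lower in 3 of 3 pairs, by log2 changes of -8.50, -4.01 and -5.12, while OPRK1 was higher in 1. KLK2, a related protease, had -5.16, -0.98 and -4.40, and PMEPA1, an inhibitor of TGF-beta signalling, -3.79, -1.16 and -1.49. ACPP, prostatic acid phosphatase, went the other way in LnCaP-abl, with 3.94 scaled FPKM in LnCaP and 64.7 in LnCaP-abl (log2 change 3.73). NDRG1 had 0.47 there, and ABCC4 -1.44.

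**Figure D3:**
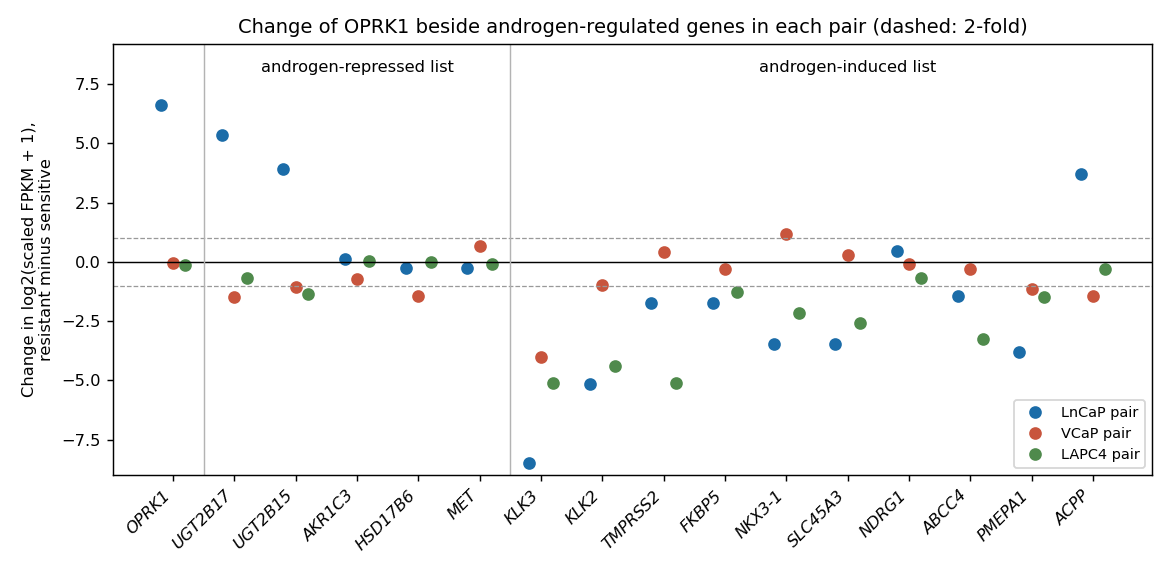
Change in log2(scaled FPKM + 1), resistant minus sensitive, of OPRK1, 5 androgen-repressed and 10 androgen-induced genes, with 1 point per pair and dashed lines at 2-fold. In the LnCaP pair OPRK1 (6.62), UGT2B17 (5.35) and UGT2B15 (3.92) stand high, and KLK3 is low in all 3 pairs.

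The rest of the opioid pathway was described from lists chosen with earlier results of these data known. The precursors PNOC and POMC were near background in every library, with at most 0.390 and 0.392 scaled FPKM, both in LAPC4. Of the other opioid-related genes, OGFR, the receptor of an opioid growth factor, had log2 changes of 0.43, -0.28 and -0.35. TMEM97 had -0.35, 0.22 and 0.79. Neither changed 2-fold in any pair.

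Of 13 genes that process or break down opioid peptides, 9 passed the filter. In the LnCaP pair 1 of the 9 was at least 2-fold higher and 0 lower (median 0.27), in the VCaP pair 1 and 0 (median 0.15), and in the LAPC4 pair 2 and 1 (median -0.29). The shares of all tested genes were 6.66% and 7.72%, 2.54% and 2.29%, and 5.75% and 6.77% in the same order. CPE, carboxypeptidase E, which trims peptide precursors, was higher in 3 of 3 pairs. It was at 15.7 and 36.5 scaled FPKM in the LnCaP pair, 6.21 and 30.8 in the VCaP pair and 5.48 and 16.2 in the LAPC4 pair, so that each resistant library lay above all 3 parents, LAPC4-CR only just above LnCaP. Its edgeR log2 change was 1.70 (SE 0.51, adjusted p = 0.525), short of the 5% threshold. The convertase genes PCSK1 and PCSK2, which make the first cuts in PDYN and PENK products, did not pass the filter. PAM, which amidates peptides, DPP3 and CPD, 2 other peptidases, ECE2 and CTSL1 had log2 changes of -0.13, 0.76, 0.47, -0.46 and -0.46 in the LnCaP pair. MME, neprilysin, which degrades enkephalins, was high in LnCaP (81.5) and LnCaP-abl (88.9) and at most 10.8 elsewhere.

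Of 24 G protein and effector genes, 16 passed the filter. The LnCaP pair had 1 at least 2-fold higher and 2 lower (median 0.14), the VCaP pair 2 and 0 (median -0.09), and the LAPC4 pair 2 and 1 (median -0.12). The shares of all tested genes were 6.66% and 7.72%, 2.54% and 2.29%, and 5.75% and 6.77% in the same order. GNAI1, an inhibitory G protein alpha subunit through which opioid receptors signal, was lower in 3 of 3 pairs. It was at 6.71 and 0.268 scaled FPKM for the LnCaP pair, 13.8 and 10.6 for the VCaP pair, and 23.2 and 7.43 for the LAPC4 pair. LnCaP-abl, the line with the highest OPRK1, had the lowest GNAI1, on 14 counts against 286 in LnCaP. The other inhibitory alpha subunits, GNAI2 and GNAI3, were at 10.9 and 30.5 in LnCaP-abl against 11.7 and 28.6 in LnCaP, so LnCaP-abl still held RNA of both. The edgeR log2 change of GNAI1 was -1.99 (SE 0.94, adjusted p = 0.540). Of the others with large changes in the LnCaP pair, MAPK3, a kinase, had 1.17, the beta subunits GNB1 and GNB4 had 0.96 and -1.40, GNG12, a gamma subunit, 0.55, and PRKACB, a catalytic subunit of protein kinase A, -0.45. The 4 inwardly rectifying potassium channel genes KCNJ3, KCNJ5, KCNJ6 and KCNJ9, classical effectors of opioid receptors in neurons, did not pass the filter, and in LnCaP-abl each was at or below 0.257. KCNJ3 was at 2.28 in VCaP, on 115 counts, and 0.379 in VCaP-CR, on 31.

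Of 21 genes of desensitization and trafficking, 17 passed the filter, with 2 at least 2-fold higher and 0 lower in the LnCaP pair (median 0.43), 0 and 2 in the VCaP pair (median -0.10) and 2 and 2 in the LAPC4 pair (median 0.06). The shares of all tested genes were 6.66% and 7.72%, 2.54% and 2.29%, and 5.75% and 6.77% in the same order. RGS17, which speeds the turning off of inhibitory G proteins, was at 0.848 and 7.38 in the LnCaP pair, 2.94 and 5.41 in the VCaP pair and 0.184 and 3.21 in the LAPC4 pair. It was higher in 3 of 3 resistant lines, by log2 changes of 2.18, 0.70 and 1.83, and its edgeR log2 change was 2.51 (SE 0.91, adjusted p = 0.525). RGS10, of the same family, had 1.29 in the LnCaP pair, and the arrestin genes ARRB1 and ARRB2, whose products uncouple receptors, had 1.00 and -0.43. SLC9A3R1, a scaffold protein gene, and GRK6, a receptor kinase gene, had -0.17 and -0.07.

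Other receptors of the same branch of the family did not share the level of OPRK1 in LnCaP-abl. Of 14 receptor genes for somatostatin, galanin and other peptides, 3 passed the filter, and 0 of these changed 2-fold in the LnCaP pair (median -0.14). The highest of the 14 in LnCaP-abl was SSTR5, a somatostatin receptor gene, at 0.831 scaled FPKM. KISS1R was the one with a 2-fold change, in the VCaP pair, at 0.803 and 7.13, and it passed the filter through VCaP-CR. Of all tested genes, 2.54% were at least 2-fold higher in the VCaP pair and 2.29% lower. SSTR1 was found in the VCaP lineage, at 2.69 and 3.76.

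Of 13 regulators linked to opioid receptor genes, 12 passed the filter. In the LnCaP pair 2 were at least 2-fold higher and 0 lower (median 0.10), in the VCaP pair 0 and 0 (median -0.03), and in the LAPC4 pair 1 and 1 (median 0.21). The shares of all tested genes were 6.66% and 7.72%, 2.54% and 2.29%, and 5.75% and 6.77% in the same order. The 2 were NR3C1, which passed the filter through LnCaP-abl, and NCOR1, which lay at the 2-fold line. On deposited FPKM with no factor per library, 1 was higher. REST, the repressor of neuronal genes, was at 11.9 in LnCaP and 14.2 in LnCaP-abl (log2 change 0.24). Its corepressor RCOR1 had 0.55 and KDM1A, the histone demethylase LSD1, -0.45. NCOR1, a corepressor, had 1.00, and MYC and EZH2 had -0.91 and -0.37. NR3C1, the glucocorticoid receptor, was at 0.512 and 7.13 for the LnCaP pair, 0.897 and 0.674 for the VCaP pair, and 0.732 and 0.329 for the LAPC4 pair, again with LnCaP-abl as the one high library.

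**Figure D4:**
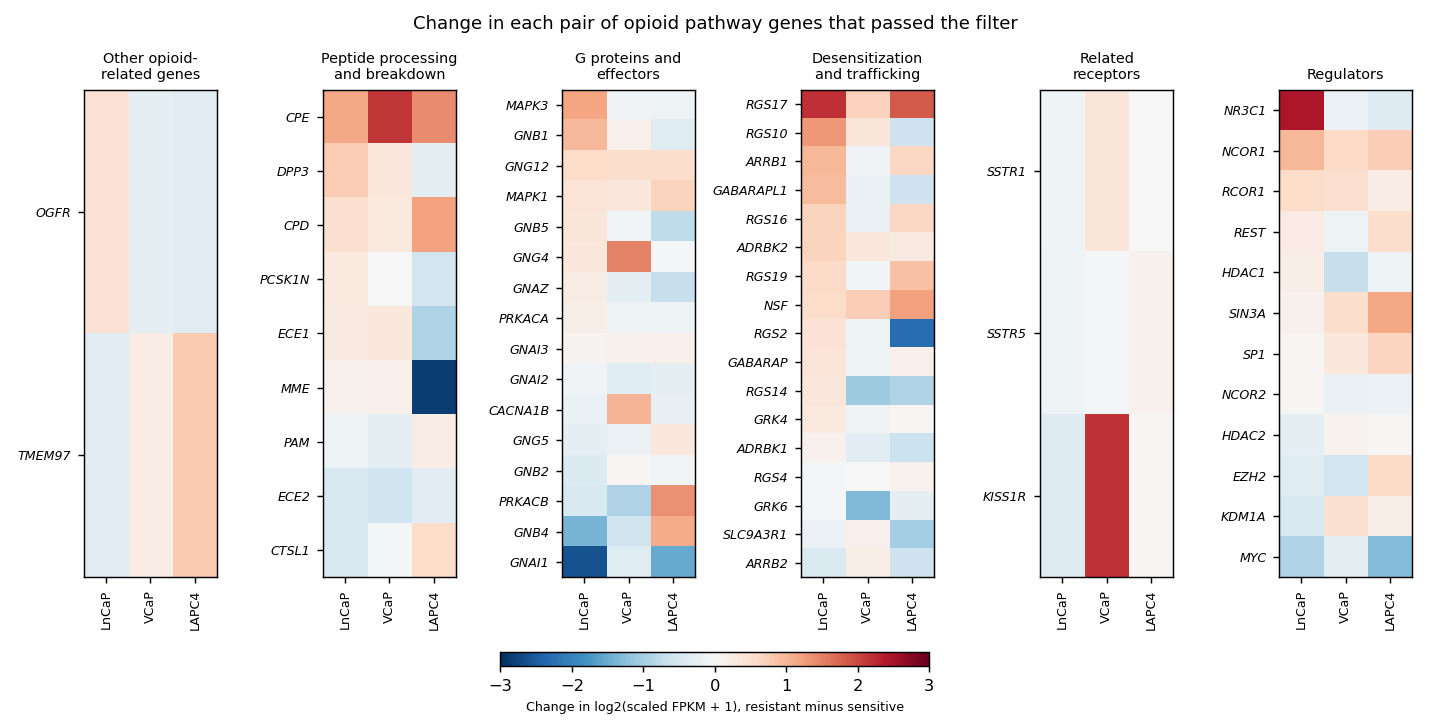
Change in log2(scaled FPKM + 1), resistant minus sensitive, of listed genes that passed the filter, as colours (red higher, blue lower in the resistant line) with 1 column per pair. CPE is red in all 3 pairs, GNAI1 is the darkest blue of the LnCaP columns (-2.60), and NR3C1 is dark red in the LnCaP pair (2.43) only.

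Among the 10 protein-coding genes whose levels over the 6 libraries had the highest Pearson r with OPRK1, of 11338 compared, were SERPINI1 (0.996), TOM1L2 (0.995), SUMF2 (0.991), NDUFAF4 (0.990), PISD (0.990), NR3C1 (0.989), IL32 (0.987), FNDC4 (0.987) and GZF1 (0.987). With 6 libraries of which 1 stands apart, r mainly picks genes that are highest in LnCaP-abl, and it says nothing of the size of the change. NR3C1, IL32 and FNDC4 passed the filter on low values through LnCaP-abl. SERPINI1, which encodes the serine protease inhibitor neuroserpin, came closest in size as well. It was at 1.27 and 91.5 scaled FPKM for the LnCaP pair, 2.43 and 3.13 for the VCaP pair, and 1.30 and 0.526 for the LAPC4 pair. IL32, a cytokine gene, was at 0.620 in LnCaP and 19.6 in LnCaP-abl and at most 0.614 elsewhere. The others changed less in the LnCaP pair, from 0.40 for SUMF2 to 2.43 for NR3C1 on the log2 scale. Without the LnCaP pair, 0 of these 10 genes were among the 10 most like OPRK1.

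**Figure D5:**
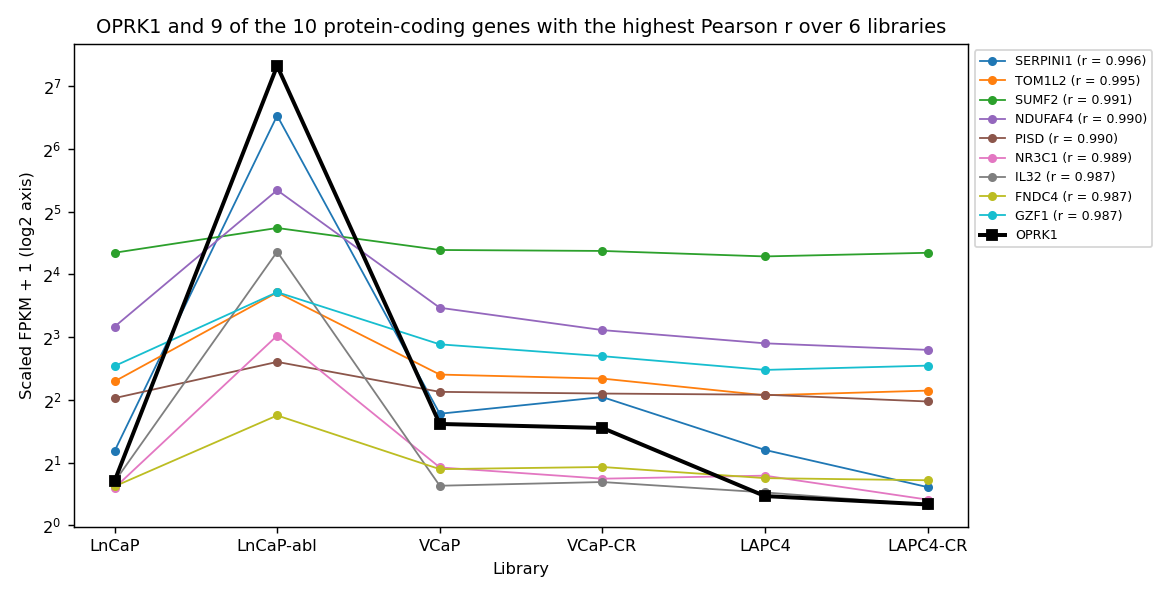
Scaled FPKM + 1 (log2 axis) of OPRK1 and 9 of the 10 genes with the highest Pearson r, by library; lines join the values of 1 gene. All 10 genes shown are highest in LnCaP-abl, and SERPINI1, at 91.5 there, is nearest to OPRK1.

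Across the series, total counts ran from 8661337 to 22433655 per library, with more counts in the resistant line of every pair. Of 9 luminal prostate markers all passed the filter; KRT8 and KRT18 were present in every library (at least 13.3 and 17.6 scaled FPKM), while KLK3 and KLK2 were below 1 in LnCaP-abl. The summed level of the luminal list was 1055 and 366 for the LnCaP pair, 2514 and 1584 for the VCaP pair, and 389 and 238 for the LAPC4 pair. Neuronal and neuroendocrine markers, of interest because OPRK1 is a neuronal gene, had summed levels of 7.67, 16.5, 16.2, 55.5, 9.61 and 8.43 in the same order, with 6 of 10 past the filter. In LnCaP-abl the sum was carried by ENO2 (12.3), with CHGA at 0.224 and SYP at 0.635. Stromal markers had sums of up to 51.8, the highest in VCaP-CR with LUM at 49.8, and 3.34 in LnCaP-abl. Blood markers had sums of 1.45 to 2.85, and 0 of 6 passed the filter.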

How the data were processed

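RNeasy was used to purify total RNA, and the SOLiD Total RNA-Seq kit to prepare libraries, per the labels' protocols. HTSeq and the build hg18 are named in the submitters' processing notes; the aligner was not given in the sources used here. Each deposited table lists 51698 genes with whole-number counts per gene and FPKM values, per the file headers. The deposited FPKM was rebuilt within 1% for 100.0% of values from count, length and total. Gene length is a deposited column, with no unit but bases; LAPC4-CR took it from the other tables. Coordinates are the deposited hg18 ones with 1 added to the start, since for 1348 single-exon protein-coding entries the end minus the start equals the length. Strands were taken from GENCODE release 29 by identifier.

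Entries sharing a symbol were summed (345 symbols), and 2459 small RNA or mitochondrial symbols were left out. Scaled FPKM is FPKM over a size factor per library, the median ratio to each gene's geometric mean; 12460 genes with at least 1 FPKM everywhere set the factors (0.863 to 1.08). The 17324 genes whose mean scaled FPKM was at least 1 were tested. EdgeR 4.0.16 (quasi-likelihood, TMM, parental line as a block, R 4.3.3) was run on the counts, with Benjamini-Hochberg adjustment over all genes and a 5% threshold; its SE is the log2 change divided by the normal deviate of its p. The test was checked on simulated counts. DESeq2 1.42.0 and limma 3.58.1 were alternatives. The pairing comes from the line names. Since each line has 1 library, p-values measure only the spread between these libraries. Changes within a pair have no test; ratios carry exact 95% binomial and counts exact 95% Poisson intervals, which cover counting error only. The edgeR fit with no filter for the 5 low genes was added after seeing the data. Members and lists were chosen with earlier results of these data known. Named genes were the 6 members, the 3 highest and 3 lowest of each list in the LnCaP pair, those changed 2-fold one way in all 3 pairs, tested neighbours of OPRK1 within 1 Mb, and the 10 genes most like OPRK1. Others named (MME, GNAI2, GNAI3, KCNJ genes, PCSK1, PCSK2, REST and NPBWR1, for example) were chosen after their values were seen. Of the lists and the genes most like OPRK1, 3 genes count in the totals and are not reported here.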

Additional observations from a re-analysis of the deposited data

Results flagged for a closer look

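Genes named in the report that were at least 2-fold higher in 1 pair and at least 2-fold lower in another are given here; with 1 library for each line, these differences were not tested. None of the 6 opioid genes is among them. UGT2B17 was higher in LnCaP-abl and lower in VCaP-CR (difference of the log2 changes 6.85). UGT2B15 was higher in LnCaP-abl and lower in VCaP-CR (difference 4.96) and in LAPC4-CR (difference 5.27). ACPP was higher in LnCaP-abl and lower in VCaP-CR (difference 5.19). GNB4 was lower in LnCaP-abl and higher in LAPC4-CR (difference -2.51). ENO2, named among the neuronal markers, was higher in LnCaP-abl (log2 change 1.54) and lower in LAPC4-CR (-1.28).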

How the results depend on the processing

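The log2 change of OPRK1 in the LnCaP pair was 6.62; it was 7.50 with a pseudocount of 0.25, 4.87 with a pseudocount of 5 and 7.67 on CPM with TMM factors, all in the same direction. Of 60 changes of the other 5 genes in a pair under alternatives, 0 changed sign. Over the 3 pairs, OPRK1 ran from -0.30 to 3.88 with 1 pair left out, negative without the LnCaP pair. OPRM1 ran from -0.44 to 0.040, OPRD1 from -0.20 to 0.19 and PDYN from -1.05 to 0.52 with 1 pair left out, and limma gave OPRD1 -0.016; of these, 0 passed 5%. Without the LAPC4 pair, edgeR's adjusted p for OPRK1 was 0.563, and 2.72e-07 with no filter, where 258 genes were called higher and 147 lower of 42543; both values rest on the LnCaP pair, on which the gene was chosen, and carry no test of it. EdgeR called 0 genes in either direction; DESeq2 called 94 higher and 64 lower, and edgeR with no filter 95 and 58. With 1 pair left out, 0 to 25 were called higher and 1 to 16 lower; with no filter, 462 and 278 without the LnCaP pair, 140 and 150 without the VCaP pair, and 0 and 0 under limma or without the block. Without the replicate block that gives the pairing, edgeR called 0 and 0 genes, and OPRK1 had 5.70 (adjusted p = 1) against 1.48 with it. Over all lists, the 8 lower genes of the VCaP pair became 3 with a pseudocount of 5, the 5 higher ones became 3 at a mean of at least 5 scaled FPKM, and the 8 higher ones of the LAPC4 pair became 4 with a pseudocount of 5. The low counts of OPRL1, OPRM1, OPRD1, PENK and PDYN limit what could be seen: their ratio intervals span 2-fold or more.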
